A study of Mus musculus with 10 samples.

Results

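The genes described here build, cross-link and degrade the collagen matrix of the liver, and they were measured in mice given an adenovirus encoding Phf2 or GFP. The set holds every gene on the array whose single symbol names a collagen alpha chain, a lysyl oxidase, a matrix metalloproteinase (Mmp), a tissue inhibitor of metalloproteinases (Timp) or a member of the Adamts family, 97 of the 19938 genes analysed. It comprises 44 collagen genes, 4 lysyl oxidases, 22 Mmp genes, 4 Timp genes and 23 Adamts and Adamts-like genes. The members were chosen by name, though with earlier results of these data known.

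Livers came from male C57BL/6J mice that were 8 weeks old when Phf2, a histone demethylase, or the fluorescent protein GFP was delivered by adenovirus through the tail vein, and that were studied fed, 3 weeks later. Each group had 5 mice with 1 Affymetrix array per liver, and the labels call these biological replicates. Both groups thus carried an adenovirus, and no liver without virus is analysed here. According to the methods, mice that did not overexpress the protein were removed from the study, and the mice were neither randomised nor assessed blind. The values are log2 expression values made by RMA, which corrects background, equalises the arrays and summarises the probes of a feature. A difference of 1 on this scale is therefore a 2-fold difference. The value of one gene cannot be set against that of another, because their probes differ. Array medians lay between 5.06 and 5.18, and pairs of arrays correlated at 0.9783 to 0.9932. The array feature for Phf2 itself differed by -0.05 (log2, adjusted p = 0.751), and no source says whether its probes match the injected Phf2.

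Fibrillar collagens are secreted as procollagens, trimmed by proteases outside the cell and joined into fibres whose chains the lysyl oxidases then cross-link. Metalloproteinases of the Mmp and Adamts families cut collagens, elastin and proteoglycans, and the Timp proteins bind and block them. In liver, hepatic stellate cells and portal fibroblasts are the main source of fibrillar collagen, whereas macrophages are a known source of several secreted Mmp proteins.

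Matrix metalloproteinases were 5 of the 7 members that rose in Phf2 livers, while the fibrillar collagens and the lysyl oxidases did not pass the test. Mmp12, Mmp13, Mmp7, Mmp2 and Mmp27 rose, as did the protease gene Adamts1 and the collagen VI chain Col6a3, and Col18a1 fell. A gene is called here when its adjusted p is under 0.05 in limma, with Benjamini-Hochberg adjustment over all 19938 genes. By this measure 7 of the 97 members (7.22%) were called higher, against 5.43% of all genes, and 1 member (1.03%) was called lower, against 4.24% of all genes. As a whole the set lay close to this background. An unadjusted p under 0.05 was reached by 21 members (21.6%), 17 of them higher and 4 lower, compared with 22.2% of all genes. The median difference of the members, 0.00 on the log2 scale, was near that of all genes, -0.01. The paper selected its changed genes at 1.5-fold and p under 0.05. With both an unadjusted p under 0.05 in limma and a 1.5-fold difference, 4 members were higher (Mmp12, Mmp13, Mmp7 and Mmp2) against 2.38% of all genes. In 7 members all Phf2 arrays lay above all GFP arrays, against 4.71% of all genes, and in 2 members all lay below, against 4.36%.

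**Figure D1:**
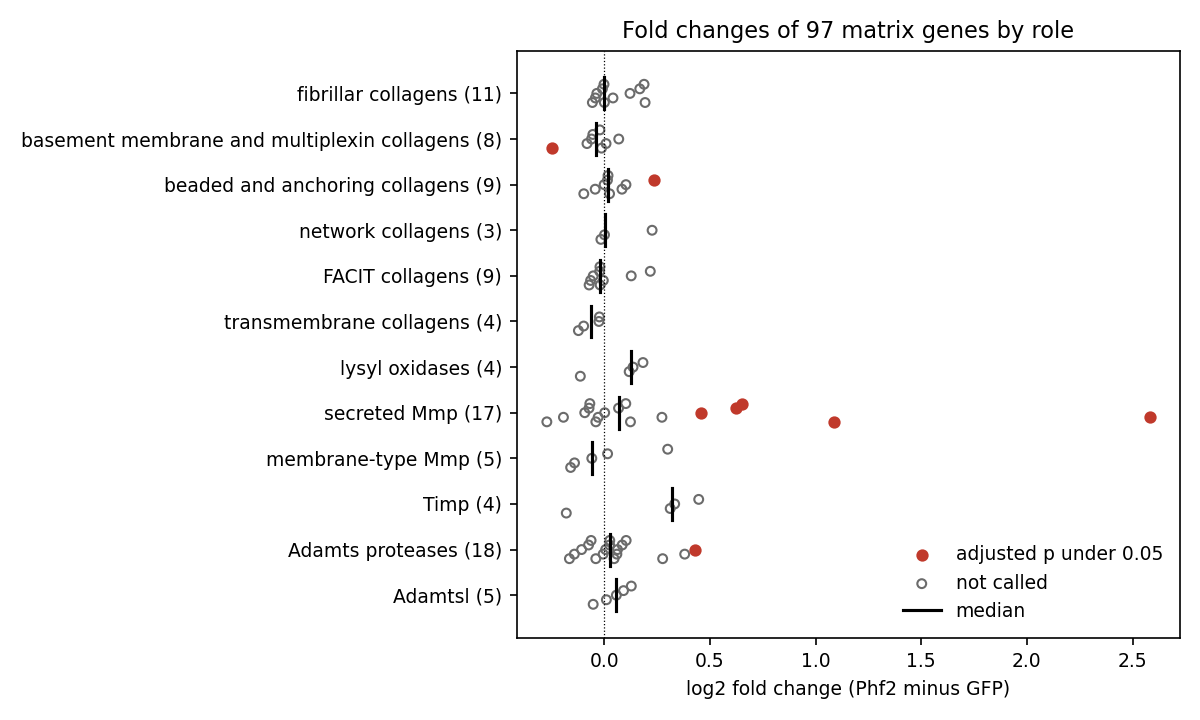
Differences between Phf2 and GFP livers (log2, x axis) of the 97 matrix genes, grouped by role with the number of genes in parentheses (y axis); filled points were called at an adjusted p under 0.05, open points were not, and bars are medians. The 5 called Mmp genes reach from 0.46 to 2.58, whereas all collagens lie between -0.25 and 0.24.

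Mmp genes other than the 5 membrane-type ones are classed here as secreted. Among these 17 secreted Mmp genes, 5 rose (29.41%) and 0 fell, against 5.43% and 4.24% of all genes. The per-gene test of the study's methods called 3 of the 17 after adjustment. The median difference over all 17 was 0.07, with a range of -0.27 to 2.58. Mmp12, the macrophage elastase, showed the largest difference of all members. It read 4.81, 5.63, 5.75, 5.09 and 5.92 in GFP mice 1 to 5 and 7.33, 8.31, 8.64, 8.67 and 7.16 in Phf2 mice 1 to 5. Every Phf2 array lay above every GFP array, with a gap of more than the whole spread of the GFP group. The means were 5.44 ± 0.47 (SD, n = 5) in GFP and 8.02 ± 0.73 (SD, n = 5) in Phf2 livers, a difference of 2.58 (SE 0.32, 95% interval 1.89 to 3.27, adjusted p = 0.00031), or 5.98-fold. The two-sided exact permutation p for this gene was 0.0079, the smallest that 5 against 5 arrays can give.

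Mmp13, a collagenase that cleaves fibrillar collagen, read 4.48, 4.87, 4.74, 4.60 and 4.95 in GFP and 5.50, 6.14, 6.25, 6.06 and 5.12 in Phf2 mice. The groups did not overlap, although Phf2 mouse 5 lay close to the highest GFP arrays. The difference was 1.09 (SE 0.19, 95% interval 0.66 to 1.51, adjusted p = 0.00376), or 2.12-fold.

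Mmp7, or matrilysin, a small protease that epithelia often produce, read 5.46, 5.54, 5.66, 5.85 and 5.41 in GFP and 5.93, 6.85, 6.05, 6.48 and 5.87 in Phf2 mice. Phf2 mice 2 and 4 were the highest, and the other 3 Phf2 arrays lay just above GFP mouse 4. The difference was 0.65 (SE 0.17, 95% interval 0.28 to 1.02, adjusted p = 0.0306).

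For Mmp2, gelatinase A, which stellate cells and fibroblasts make, the values were 5.67, 5.73, 5.26, 5.80 and 5.78 in GFP and 5.91, 6.59, 6.47, 6.44 and 5.96 in Phf2 mice. Phf2 mice 2, 3 and 4 stood well above all controls, and Phf2 mice 1 and 5 only slightly above them. The difference was 0.62 (SE 0.15, 95% interval 0.30 to 0.94, adjusted p = 0.0180). Mmp27, a less studied stromelysin-like protease, read 4.99, 5.26, 4.93, 4.72 and 5.10 in GFP and 5.39, 5.51, 5.53, 5.48 and 5.39 in Phf2 mice. Its Phf2 arrays lay close together and above all controls, with a difference of 0.46 (SE 0.09, 95% interval 0.26 to 0.65, adjusted p = 0.00672).

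**Figure D2:**
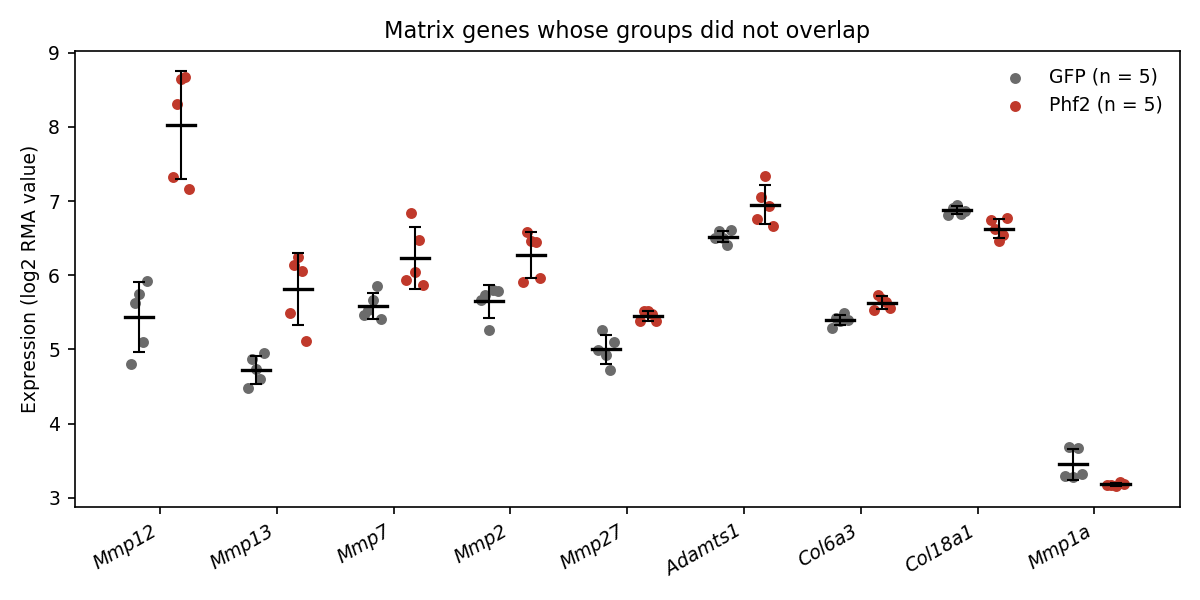
Log2 RMA values (y axis) in each of 5 GFP and 5 Phf2 livers of the 9 matrix genes whose groups did not overlap (x axis); bars are means with SD. Mmp12 shows the widest gap, from a GFP maximum of 5.92 to a Phf2 minimum of 7.16, and levels of different genes are not comparable.

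Other secreted Mmp genes did not pass. Mmp8, the neutrophil collagenase, differed by -0.19 (95% interval -0.44 to 0.05, adjusted p = 0.36). Mmp9, or gelatinase B, a product of neutrophils and macrophages, differed by -0.09 (95% interval -0.25 to 0.07, adjusted p = 0.544), and Mmp19 by -0.07 (95% interval -0.22 to 0.08, adjusted p = 0.642). Mmp1a, a mouse interstitial collagenase gene, read 3.30, 3.69, 3.28, 3.67 and 3.32 in GFP and 3.17, 3.18, 3.16, 3.21 and 3.18 in Phf2 mice. Its groups did not overlap, with all Phf2 arrays lower, but the difference of -0.27 was not called (adjusted p = 0.0827). Mmp1a, Mmp8 and Mmp9 were in the lowest 25% of genes by mean value, and Mmp1a has a close paralog, Mmp1b, so that their signals may not be fully separate.

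Of the 5 membrane-type Mmp genes, 0 passed in limma and 2 had an unadjusted p under 0.05 (40.0%, against 22.2% of all genes). In this and every other role with 0 calls in limma, the per-gene test of the study's methods made 0 calls after adjustment as well. After adjustment that test called 4 members, Mmp12, Mmp13, Mmp27 and Col6a3. It did not call Mmp2 (adjusted p = 0.0755), Mmp7 (adjusted p = 0.109), Adamts1 (adjusted p = 0.0864) or Col18a1 (adjusted p = 0.0591). The paper's own selection, at 1.5-fold and p under 0.05, is described without an adjustment. Mmp14, which sits in the cell membrane and activates the Mmp2 precursor, read 6.47, 6.66, 6.81, 6.54 and 6.38 in GFP and 6.67, 6.83, 7.20, 6.97 and 6.68 in Phf2 mice. Its groups overlapped, and the difference was 0.30 (95% interval 0.06 to 0.54, adjusted p = 0.127).

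Of the 5 called Mmp genes 4 lie in a single run of genes. On mouse chromosome 9 a run of 10 Mmp genes lies in the order Mmp13, Mmp12, Mmp1b, Mmp3, Mmp1a, Mmp10, Mmp8, Mmp27, Mmp20 and Mmp7. Of these, 4 were called higher (40.0%), Mmp13 and Mmp12 at one end, Mmp7 at the other and Mmp27 between, while of the 12 Mmp genes elsewhere 1 was called (8.33%), Mmp2. Over all genes 5.43% were called higher. These are counts with no test of the difference between them. The genes between did not move together. Mmp3, or stromelysin 1, differed by 0.10 (95% interval -0.16 to 0.36), Mmp10, stromelysin 2, by -0.07 (95% interval -0.33 to 0.19), and Mmp20, the enamel protease, by 0.12 (95% interval -0.06 to 0.31). The genes flanking the run, Dcun1d5 and Tmem123, differed by 0.17 (adjusted p = 0.512) and -0.07 (adjusted p = 0.765).

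**Figure D3:**
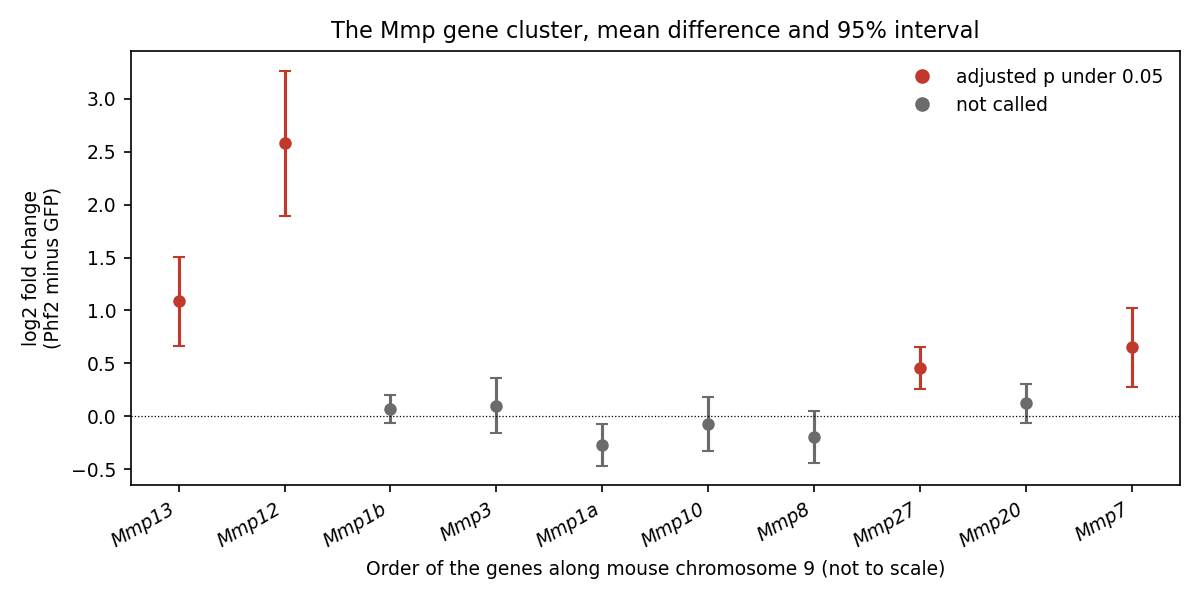
Mean difference between Phf2 and GFP livers (log2, y axis) with 95% intervals of the 10 Mmp genes in their order along mouse chromosome 9 (x axis, not to scale), called genes in red. Mmp13, Mmp12, Mmp27 and Mmp7 lie above 0, and the 6 other genes lie between -0.27 and 0.12.

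Several promoters of this run carry the AP-1 motif, TGAGTCA or its reverse complement TGACTCA, which Fos and Jun proteins bind and for which secreted Mmp promoters are known. The 120 bases before each annotated start are printed for the called genes of the run, 5′ to 3′ on the gene's strand, from RefSeq on build GRCm38.p6, with the motif in capitals.
Mmp13, chr9:7272394-7272513 (+ strand): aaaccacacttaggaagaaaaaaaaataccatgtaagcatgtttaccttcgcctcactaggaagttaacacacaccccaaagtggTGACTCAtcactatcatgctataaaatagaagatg
Mmp12, upstream start, chr9:7344277-7344396 (+ strand): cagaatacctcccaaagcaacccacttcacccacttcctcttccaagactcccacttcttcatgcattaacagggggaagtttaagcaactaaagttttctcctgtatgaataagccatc
Mmp12, downstream start, chr9:7347254-7347373 (+ strand): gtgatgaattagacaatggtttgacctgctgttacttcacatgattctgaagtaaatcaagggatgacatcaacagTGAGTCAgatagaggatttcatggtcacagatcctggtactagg
Mmp7, upstream start, chr9:7691970-7692089 (+ strand): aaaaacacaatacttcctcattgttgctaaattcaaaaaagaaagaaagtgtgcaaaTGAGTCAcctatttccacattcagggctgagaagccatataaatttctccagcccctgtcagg
Mmp7, downstream start, chr9:7692221-7692340 (+ strand): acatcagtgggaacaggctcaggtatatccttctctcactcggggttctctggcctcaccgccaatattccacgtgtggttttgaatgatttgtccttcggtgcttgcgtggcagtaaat
Mmp27, chr9:7571276-7571395 (+ strand): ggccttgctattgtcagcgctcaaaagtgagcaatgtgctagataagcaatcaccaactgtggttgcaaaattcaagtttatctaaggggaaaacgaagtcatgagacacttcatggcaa
In Mmp13 the motif begins 35 bases before the gene start, in Mmp12 it begins 44 bases before the downstream of its 2 annotated starts, and in Mmp7 it begins 63 bases before the upstream start. The window of Mmp27 holds no match, nor do those of the upstream Mmp12 start and the downstream Mmp7 start. Over the run, 7 of 10 genes hold the motif in at least 1 window, among them Mmp1b, Mmp3, Mmp1a and Mmp10, which were not called. Among all 32851 RefSeq promoters, 757 (2.3%) hold it in the same window, searched on both strands, compared with 8 of 76 promoters (10.5%) of the 70 members with an entry. This share rests on the run, since 1 of the 60 members outside it holds the motif. A match describes these letters only, and binding of a factor was not measured on these arrays.

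Among the Timp genes, 0 of 4 were called in limma. An unadjusted p under 0.05 was reached by 3 (75.0%, against 22.2% of all genes), each with a higher mean in Phf2 livers. The median difference of the 4 was 0.32. Timp1, the inhibitor that rises in most forms of tissue injury, read 4.08, 3.97, 4.13, 3.94 and 3.87 in GFP and 4.10, 4.60, 4.36, 4.45 and 4.15 in Phf2 mice. Phf2 mouse 1 fell among the controls and the other 4 lay above them. The difference was 0.33 (95% interval 0.12 to 0.54), with an adjusted p of 0.05003, just above the threshold. Timp1 and Timp4 were in the lowest 25% of genes by mean value.

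Timp2, which blocks Mmp2 and also takes part in its activation, read 6.22, 6.23, 6.11, 6.12 and 6.13 in GFP and 6.38, 6.73, 6.89, 6.91 and 6.14 in Phf2 mice. Phf2 mouse 5 lay within the control range, and the difference was 0.45 (95% interval 0.16 to 0.74, adjusted p = 0.0536). Timp3, an inhibitor bound to the matrix, read 6.68, 6.98, 6.75, 6.56 and 6.78 in GFP and 6.95, 7.09, 7.31, 7.16 and 6.81 in Phf2 mice. Here the groups also overlapped, and the difference was 0.31 (95% interval 0.09 to 0.53, adjusted p = 0.0761). Without Phf2 mouse 5 all 3 genes passed, at adjusted p values of 0.0321 (Timp1), 0.00421 (Timp2) and 0.0287 (Timp3). Over all alternative settings Timp1 was not called in 12 of 19, Timp2 in 15 of 20 and Timp3 in 18 of 20. Their adjusted p values reached 0.324, 0.385 and 0.523. Timp1 has 1 setting fewer because dropping the dimmest genes removes it. Timp4 differed by -0.18 (95% interval -0.41 to 0.05, adjusted p = 0.371).

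No fibrillar collagen passed the adjusted threshold. Of 11 genes 0 were called, and 3 had an unadjusted p under 0.05 (27.3%, against 22.2% of all genes). The median difference was 0.00 with a range of -0.06 to 0.19. The 3 were the chains of type I and type III collagen, the main fibre-forming collagens of a scarred liver. Col1a1 read 6.24, 6.27, 5.96, 6.30 and 6.18 in GFP and 6.36, 6.51, 6.26, 6.29 and 6.38 in Phf2 mice, a difference of 0.17 (95% interval 0.00 to 0.34, adjusted p = 0.221) that was 0.11 without GFP mouse 3. Col1a2 read 6.32, 6.38, 6.01, 6.21 and 6.10 in GFP and 6.33, 6.45, 6.57, 6.33 and 6.29 in Phf2 mice, a difference of 0.19 (95% interval 0.00 to 0.37, adjusted p = 0.214). Col3a1 read 5.90, 5.83, 5.53, 5.77 and 5.60 in GFP and 5.95, 6.01, 5.82, 5.92 and 5.89 in Phf2 mice, a difference of 0.19 (95% interval 0.03 to 0.36, adjusted p = 0.157). The groups overlapped for all 3 genes, and GFP mouse 3 was the lowest array in each. The intervals of these 3 differences end at 0.34, 0.37 and 0.36. Col5a1 and Col5a2, chains of the type V collagen that starts fibres, differed by -0.001 (95% interval -0.19 to 0.19, adjusted p = 0.997) and 0.12 (adjusted p = 0.43), the latter 0.06 without GFP mouse 5.

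**Figure D4:**
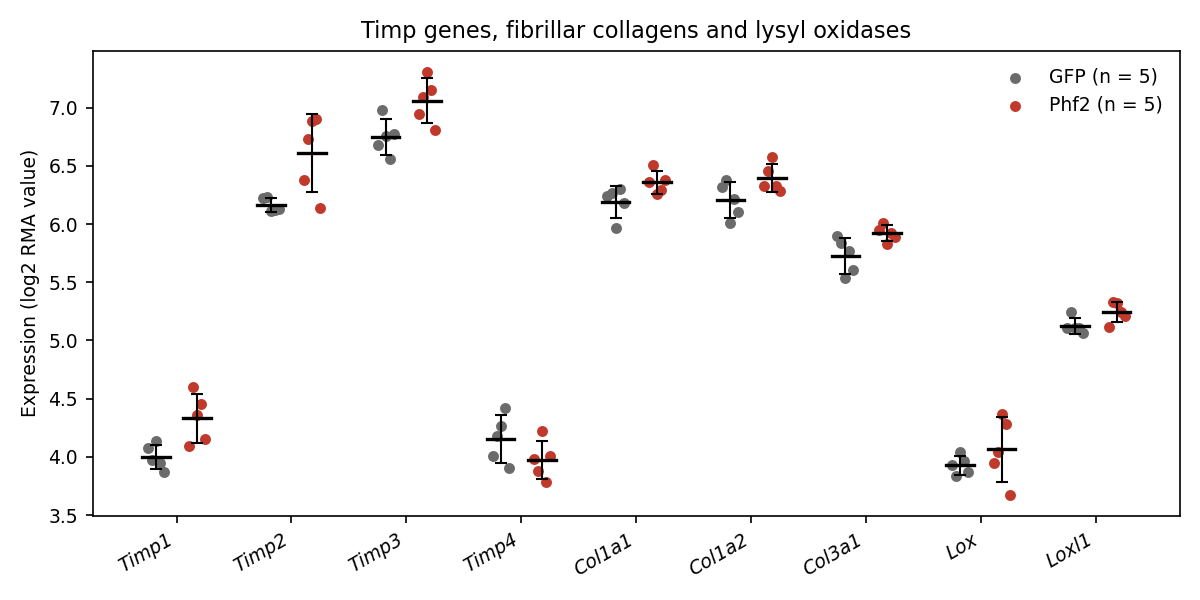
Log2 RMA values (y axis) of the 4 Timp genes, 3 fibrillar collagens, Lox and Loxl1 (x axis) in 5 GFP and 5 Phf2 livers, with mean and SD. In each gene the groups overlap, and in Timp2 Phf2 mouse 5 (6.14) lies among the GFP arrays while the 4 other Phf2 arrays lie above them.

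Collagen VI, which forms beaded filaments around cells, held the only collagen gene called higher. Col6a3 read 5.29, 5.43, 5.39, 5.49 and 5.39 in GFP and 5.53, 5.74, 5.69, 5.64 and 5.56 in Phf2 mice. Its groups did not overlap, and the difference was small, 0.24 (SE 0.06, 95% interval 0.10 to 0.37, adjusted p = 0.0334). The chains that assemble with it differed by 0.10 (Col6a1, 95% interval -0.18 to 0.38, adjusted p = 0.716) and 0.03 (Col6a2, 95% interval -0.15 to 0.20, adjusted p = 0.903). In all, 1 of 6 collagen VI genes was called higher (16.67%, against 5.43% of all genes).

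Among basement membrane and multiplexin collagens, 1 of 8 was called, as lower (12.5%, against 4.24% of all genes). Col18a1, whose carboxyl end is released as endostatin and which hepatocytes also make, read 6.82, 6.91, 6.95, 6.83 and 6.87 in GFP and 6.74, 6.62, 6.46, 6.55 and 6.77 in Phf2 mice. Even the highest Phf2 value lay under the lowest GFP value, and the difference was -0.25 (SE 0.07, 95% interval -0.40 to -0.09, adjusted p = 0.0440). Its close relative Col15a1 differed by 0.07 (95% interval -0.07 to 0.20, adjusted p = 0.59). Col4a1 and Col4a2, which form the collagen IV network, differed by -0.01 (95% interval -0.18 to 0.16) and 0.01 (95% interval -0.15 to 0.17), and 0 of the 6 collagen IV genes were called or reached an unadjusted p under 0.05.

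The network collagen Col8a1, a product of vessel walls, read 4.87, 5.13, 4.99, 4.98 and 4.99 in GFP and 5.18, 5.18, 5.32, 5.10 and 5.31 in Phf2 mice. Only Phf2 mouse 4 lay under the highest control, and the difference of 0.23 was not called (adjusted p = 0.0543). Col14a1, which sits on the surface of collagen fibres, differed by 0.22 (95% interval -0.02 to 0.46, adjusted p = 0.278). The FACIT collagens, to which it belongs, had 0 of 9 genes called and 0 at an unadjusted p under 0.05, and the 4 transmembrane collagens ranged from -0.12 to -0.02 with 0 called. Over the 42 collagens other than Col6a3 and Col18a1 the differences ran from -0.12 to 0.23, with a median of -0.01.

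Lysyl oxidases, the copper enzymes that cross-link collagen and elastin, had 0 of 4 genes called and 1 at an unadjusted p under 0.05, Loxl3. Lox read 3.93, 3.83, 4.04, 3.96 and 3.87 in GFP and 3.95, 4.04, 4.37, 4.28 and 3.68 in Phf2 mice. Phf2 mice 3 and 4 were the highest and Phf2 mouse 5 the lowest of all arrays, with a difference of 0.14 (95% interval -0.11 to 0.39, adjusted p = 0.563). Lox was in the lowest 25% of genes by mean value. The values were 0.12 for Loxl1 (95% interval -0.02 to 0.25, adjusted p = 0.304), 0.18 for Loxl3 (95% interval 0.01 to 0.36, adjusted p = 0.205) and -0.11 for Loxl4 (95% interval -0.31 to 0.08, adjusted p = 0.541). Loxl2 shares its feature with another symbol and was not analysed here.

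In the Adamts family 1 of 18 proteases was called higher (5.56%, near the 5.43% of all genes), and 0 of 5 Adamts-like genes were called. Adamts1, which cleaves the proteoglycans versican and aggrecan, read 6.50, 6.59, 6.50, 6.42 and 6.61 in GFP and 6.75, 7.06, 7.34, 6.93 and 6.67 in Phf2 mice. The groups did not overlap, although Phf2 mouse 5 lay barely above the highest control, and the difference was 0.43 (SE 0.11, 95% interval 0.19 to 0.67, adjusted p = 0.0284). Its call was lost in 10 of 20 alternative settings, among them median centring (adjusted p = 0.0509) and adjustment over all features (adjusted p = 0.0633). Its neighbour in function Adamts5, another aggrecanase, read 5.01, 5.70, 5.74, 5.83 and 5.01 in Phf2 mice against 4.70 to 5.41 in GFP mice, a difference of 0.38 (adjusted p = 0.242). Phf2 mice 2, 3 and 4 lay above the controls in this gene and Phf2 mice 1 and 5 among them. Adamts9 differed by 0.28 (adjusted p = 0.256), the highest of its 6 features, which ran from 0.02 with a median of 0.11. Adamts13, which stellate cells secrete and which cleaves von Willebrand factor, differed by -0.16 (95% interval -0.33 to -0.0033, adjusted p = 0.214), and Adamtsl2 by 0.13 (adjusted p = 0.414).

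The size of the difference varied between Phf2 mice in a like manner across genes. Phf2 mice 2, 3 and 4 were the 3 arrays farthest from the controls in 8 of the 8 called members, and in 948 of the 1929 genes called in the whole table (49.1%). No label separates these mice from Phf2 mice 1 and 5.

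Genes that act with the members were described from 4 lists of 98 genes in all. Of these, 14 rose (14.29%) and 8 fell (8.16%), against 5.43% and 4.24% of all genes. The lists were written with earlier results of these data known, so these shares are not an independent comparison. In collagen processing, 3 of 26 rose and 3 fell (11.54% each), with a median of -0.04. Serpinh1, the collagen chaperone HSP47, rose by 0.62 (adjusted p = 0.011), the proprotein convertase Furin by 0.56 (adjusted p = 0.000655) and Pcolce, the procollagen C-proteinase enhancer, by 0.37 (adjusted p = 0.0163). In contrast, Pcolce2, the second enhancer, fell by 0.75 (adjusted p = 0.00101), Bmp1, the C-proteinase itself, fell by 0.36 (adjusted p = 0.0472) and Ppib, a prolyl isomerase of the endoplasmic reticulum, fell by 0.32 (adjusted p = 0.00677).

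Of 30 matrix glycoproteins and proteoglycans, 7 rose and 3 fell, with a median of 0.19. Mgp, matrix Gla protein, an inhibitor of calcification, rose by 1.38 (adjusted p = 0.0276), the collagen-binding proteoglycan Lum by 1.08 (adjusted p = 0.0204) and the basement membrane linker Nid1 by 0.64 (adjusted p = 0.00659). The groups overlapped for Mgp and Lum, since Phf2 mouse 5 lay among the controls. Ecm1 fell by 0.45 (adjusted p = 0.018), and the hepatocyte products Vtn, vitronectin, and Fn1, fibronectin, fell by 0.36 (adjusted p = 0.00362) and by 0.32 (adjusted p = 0.0276).

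Among 22 genes of TGF-beta and growth factor signalling, 2 rose (9.09%, against 5.43% of all genes) and 0 fell. Tgfbr2, a TGF-beta receptor, read 6.40, 6.37, 6.60, 6.47 and 6.43 in GFP and 7.07, 6.88, 7.08, 7.21 and 7.03 in Phf2 mice, with no overlap and a difference of 0.60 (adjusted p = 0.000275), and its partner Tgfbr1 rose by 0.48 (adjusted p = 0.00809). Outside the members, 2 of 20 genes of protease control rose, the elastin-degrading cathepsin Ctss by 0.52 (adjusted p = 0.0479) and the plasminogen activator Plat by 0.36 (adjusted p = 0.0187). The 2 that fell were Plg, plasminogen, by 0.40 (adjusted p = 0.00642), and Adam9 by 0.21 (adjusted p = 0.044). Several partner genes near the threshold lost their call in many of the 20 alternative settings, Adam9 in 15, Bmp1 in 13, Ctss in 12, Mgp and Fn1 in 10 each and Lum in 8.

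Markers of several cell types moved beside these genes, and in whole liver a change in the number of a cell type and a change in its RNA content cannot be told apart. The marker lists were also written with earlier results of these data known, so their shares are descriptive only. Hepatocyte markers were by far above the array median in every liver, with 3 of 7 lower (42.86%, against 4.24% of all genes). Their mean over 7 genes lay between 11.87 and 12.03 in GFP and 11.49 and 11.87 in Phf2 livers. Of 12 macrophage markers 4 rose (33.33%) and 2 fell (16.67%), against 5.43% and 4.24% of all genes. Gpnmb, a protein of lipid-laden macrophages, rose by 1.91, Cd9 by 1.92, Itgax by 0.66 and Lyz2 by 0.64, while the resident macrophage genes Timd4 and Clec4f fell by 1.59 and 0.54. The mean of the macrophage markers ran from 7.11 to 7.59 in GFP and from 7.31 to 7.81 in Phf2 livers. Of 6 T and NK cell markers 5 rose (83.33%), their mean running from 4.96 to 5.21 in GFP and from 5.63 to 6.28 in Phf2 livers.

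Markers of matrix-producing cells were read as well. Of 11 stellate cell and fibroblast markers 2 rose (18.18%) and 1 fell (9.09%), against 5.43% and 4.24% of all genes. Their means were 6.43 to 6.65 in GFP and 6.46 to 6.88 in Phf2 livers. Of 7 activated myofibroblast markers 0 were called in limma and 0 by the methods' per-gene test. An unadjusted p under 0.05 was reached by 1 (14.3%, against 22.2% of all genes). Their means were 5.81 to 6.56 in GFP and 5.76 to 6.83 in Phf2 livers, and Acta2, smooth muscle actin, differed by 0.55 (95% interval -0.07 to 1.17, adjusted p = 0.291). Of 9 neutrophil markers 0 were called in limma, 0 by the methods' per-gene test and 2 at an unadjusted p under 0.05 (22.2%, against 22.2% of all genes). The neutrophil markers had means of 4.49 to 4.66 in GFP and 4.52 to 4.75 in Phf2 livers. Their part, and that of the macrophage and lymphocyte markers, in the Mmp values was not tested.

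Pancreatic enzyme transcripts were also present, with a mean over 12 markers of 12.06, 8.08, 6.71, 5.89 and 7.50 in GFP and 5.68, 10.44, 9.75, 8.45 and 5.90 in Phf2 mice, and 0 of 12 differed between groups in limma, by the methods' per-gene test or at an unadjusted p under 0.05. GFP mouse 1, the highest in these transcripts, had the lowest Mmp12 and Mmp13 values of all arrays, whereas Phf2 mice 2, 3 and 4, next in order, had the highest. With the pancreatic mean as a covariate Mmp12 differed by 2.58 (adjusted p = 0.000386) and Mmp13 by 1.09 (adjusted p = 0.00269), and 9 members were called higher and 1 lower. Over all genes this fit called 1119 higher and 869 lower, against 1083 and 846 without the covariate. Without GFP mouse 1 and Phf2 mice 2 and 3, which leaves 4 and 3 mice, 1 member was called, Mmp12, at 2.12 (adjusted p = 0.00709). Calls over all genes also fell, to 365 higher and 230 lower. Mmp13 was then 0.77 (adjusted p = 0.0626), Mmp7 0.48 (adjusted p = 0.165), Mmp2 0.46 (adjusted p = 0.210), Mmp27 0.41 (adjusted p = 0.123), Adamts1 0.26 (adjusted p = 0.226), Col6a3 0.15 (adjusted p = 0.436) and Col18a1 -0.20 (adjusted p = 0.322), each with the same sign as in all 10 mice.

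**Figure D5:**
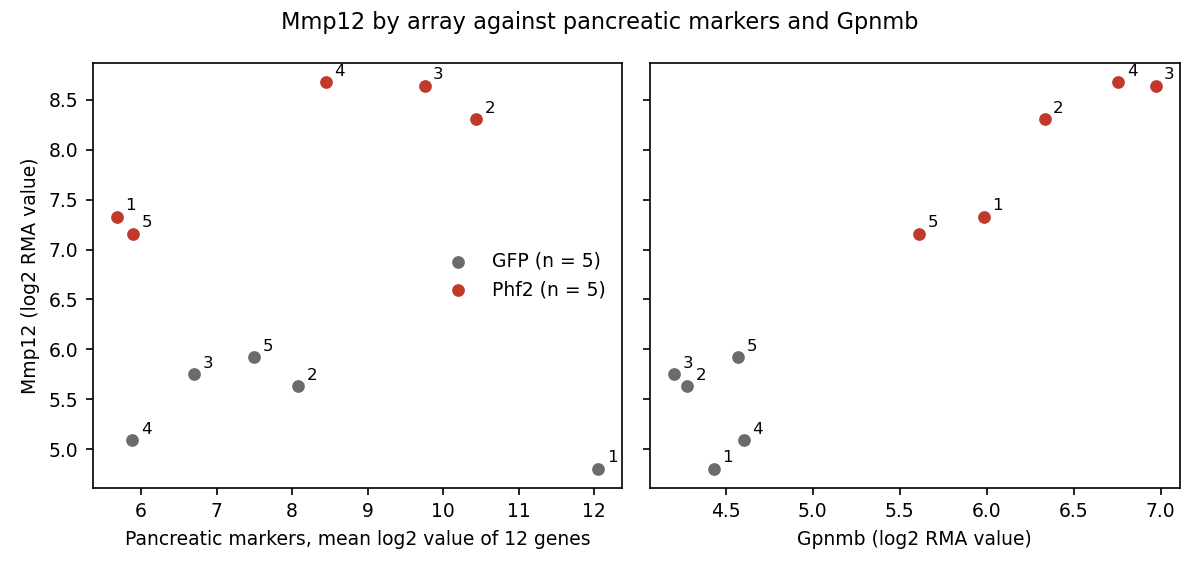
Mmp12 (log2 RMA value, y axis) in each GFP and Phf2 liver, numbered by mouse, against the mean of 12 pancreatic markers (left) and against the macrophage gene Gpnmb (right). The 5 Phf2 livers lie above the 5 GFP livers in Mmp12 and in Gpnmb, a pattern shown by 4.71% of all genes. Gpnmb was picked after its values were seen, from 12 macrophage markers of which 4 rose and 2 fell. Phf2 mice 2, 3 and 4 are the highest Phf2 livers in pancreatic markers (10.44, 9.75 and 8.45) and in Mmp12. GFP mouse 1, the highest of all in these markers (12.06), is the lowest in Mmp12. What links these values was not tested.

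Several calls lay near the threshold and were lost when 1 mouse was left out. Without Phf2 mouse 4, 3 members were called higher, and without GFP mouse 1, 4 were, against 7 in all mice. Over all genes, 727 and 806 were called higher in these fits, against 1083 in all mice. Mmp2 lost its call without Phf2 mouse 4 (0.58, adjusted p = 0.0523). Mmp7 lost it without Phf2 mouse 4 or GFP mouse 1, 2 or 5, and Adamts1 without Phf2 mouse 2 or 4 or GFP mouse 1, 3 or 4, at adjusted p values of at most 0.083 for Mmp7 and 0.0752 for Adamts1. The differences stayed of similar size in these fits, 0.59 to 0.64 for Mmp7 and 0.40 to 0.43 for Adamts1. Mmp12, Mmp13 and Mmp27 were called whichever single mouse was left out. Col6a3 and Col18a1, the 2 called collagens, each lost the call in 13 of 20 alternative settings. Without single mice these included the removal of any of Phf2 mice 2, 3 and 4 for both genes, of any GFP mouse for Col18a1 and of any GFP mouse but the fourth for Col6a3.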

How the data were processed

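The authors normalised 10 arrays with RMA in Bioconductor and deposited 35556 features on the log2 scale. RMA and Partek stand without versions in the submitters' processing notes. The methods name a human array and another RNA kit than the labels, but the features match a mouse array annotation, which can be old. No genome build is named for the arrays. Features with 1 symbol (21789) gave 19938 genes, each read through the feature with the highest mean, and 7 members had several features. Samples were grouped by the labels. The 5 Phf2 arrays were set against the 5 GFP arrays by lmFit and eBayes of limma 3.58.1 under R 4.3.3, without a covariate, and, for single genes, by a two-sided exact permutation test. Named genes were members called or not overlapping, a written list of collagens, Lox, Mmp, Timp and Adamts genes, and up to 3 genes in each direction per partner list. Adamts5, Adamts9, Col8a1, Mmp3, Mmp10, Mmp20 and the markers given singly were added after their values were seen. The members and lists were chosen with earlier results of these data known. The alternatives were the methods' test per gene, an intensity trend, further quantile normalisation, median centring, dropping the dimmest 25% of genes, other feature rules, a replicate block, a pancreatic covariate, the 1.5-fold threshold and each array left out. Leaving out 3 arrays together was chosen after seeing the data. The pipeline was tested on simulated data. Adamts2 is not analysed here. The number of arrays limits the precision.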

Additional observations from a re-analysis of the deposited data

Results flagged for a closer look

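In 4 of 104 groups of 5 arrays examined, 1 array stood apart from the other 4 by more than Dixon's 95% limit, and chance alone flags about 1 in 20 groups. GFP mouse 2 was high in Col4a2, at 6.09, and in Loxl1, at 5.24. GFP mouse 3 was low in Col6a1, at 5.38, and in Mmp2, at 5.26. Mmp2 was called without GFP mouse 3 as well. These arrays belong to the control group, and no array of the Phf2 group stood apart in the genes examined.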

How the results depend on the processing

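Mmp12 was called higher in 20 of 20 alternatives, with adjusted p from 0.000156 to 0.0101, and Mmp13 and Mmp27 in all but the one without 3 arrays. The count of members called higher, 7 in all mice, was 4 under the methods' t-test, 4 with adjustment over all features and 4 at 1.5-fold with an unadjusted p under 0.05. It was 1 without the 3 arrays highest in pancreatic markers, which leaves fewer samples, and 3 to 10 without single mice. Over all genes, 1083 higher calls became 694 under the methods' t-test, 741 with all features and 365 without the 3 arrays. Without single mice they ran from 727 to 1220. The count of members called lower, 1, was 0 under the methods' t-test, the intensity trend, all features and the 3 arrays left out. At the 1.5-fold threshold it was 0 as well, and without single mice 0 to 1. Partner genes called higher, 14, were 8, 9 and 2 under the methods' t-test, all features and the 3 arrays left out, and 9 to 20 without single mice. Those called lower, 8, were 5 with all features, 2 without the 3 arrays and 4 to 7 without single mice. The cause was not tested.

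Uncalled genes near 0 changed sign. Col4a2 was -0.0249 after quantile normalisation, -0.0109 after median centring and -0.0394 without the 3 arrays, and Col6a2 was -0.0091 after quantile normalisation. Without the 3 arrays Col15a1 was -0.0015, Col5a1 0.0436, Col6a1 -0.0025 and Mmp19 0.0061. Without single mice Col4a1 ran from -0.063 to 0.0376, Col4a2 from -0.0243 to 0.065, Col5a1 from -0.0702 to 0.0512, Col6a1 from -0.0086 to 0.182 and Col6a2 from -0.0405 to 0.0743.

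Mice with the same number did not deviate together (correlations of -0.291 to -0.0421), and no label says that the number is a pairing. With a replicate block 6 members were called higher and 0 lower, 5 partner genes were called lower, and all genes gave 855 higher and 659 lower calls, against 1083 and 846. Median centring gave 829 and 959, and quantile normalisation 1024 and 1066, so the split of all genes turned while members called higher stayed within 1.5 times. The number of arrays limits what can be called, and 14 of 97 members lay in the lowest 25% of genes by mean value, where a difference may be understated.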
